A study of Homo sapiens with 12 samples.

Results

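The genes described here encode the constitutive proteasome: the subunits of its core and regulatory particles, its activators, its inhibitor and the chaperones that assemble it. They were taken by symbol, as every listed gene named PSMA, PSMB, PSMC, PSMD, PSME, PSMF or PSMG followed by a number alone, leaving out PSMB8, PSMB9 and PSMB10, the inducible subunits of the immunoproteasome. The rule found 45 of 58278 listed genes, of which 8 are PSMA, 8 PSMB, 6 PSMC, 14 PSMD, 4 PSME, 1 PSMF and 4 PSMG genes. Of these, 43 entered the tests, and the other two, PSMA8 and PSMB11, which are known from testis and thymus, had fewer than 3 counts in every library.

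RNA was sequenced from HK2 cells, an immortalised line of human proximal tubular epithelium, in 6 groups with 2 biological replicates each. Ctrl cells were untreated and TN cells received TNF-α at 5 ng/mL for 3 h. PRTN and BUTN cells had a short-chain fatty acid (SCFA), propionate at 15 mM or butyrate at 3 mM, for 24 h ahead of the same TNF-α stimulation, and TNPR and TNBU cells had the same SCFA for 24 h following it. No group received an SCFA without TNF-α, and the 2 SCFAs were given at different doses, so their values are set side by side with no test between them. All groups come from 1 cell line. Thapsigargin and JQ1 appear in the labels' general treatment text, but the groups here follow the individual library labels, which give TNF-α with or without an SCFA.

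The proteasome degrades proteins tagged with ubiquitin. A barrel-shaped core particle, built from rings of α (PSMA) and β (PSMB) subunits, holds the proteolytic sites inside, and a regulatory particle of ATPases (PSMC) and non-ATPase subunits (PSMD) recognises, deubiquitinates and unfolds the substrate. Cells that lack proteasome capacity raise the transcription of all subunit genes together through NFE2L1 (also called NRF1), which binds antioxidant response elements, and inflammatory cytokines, interferon above all, can replace the catalytic β subunits with those of the immunoproteasome. Butyrate and propionate inhibit histone deacetylases.

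Libraries held between 27269986 and 33851130 expected counts, and the members together took 0.511% to 0.569% of them. TMM factors, which scale libraries to one another, lay between 0.913 and 0.957 in Ctrl and TN and between 1.02 and 1.06 in the SCFA groups, so the choice of scaling shifts every comparison with TN and is given wherever it matters. Markers listed for the cell type gave a mixed picture of the label, and the members of a list did not move together. The summed level of 5 epithelial markers was 1116 to 1215 CPM (counts scaled to a common library size) without and 1729 to 2317 CPM with an SCFA. Of these KRT8, KRT18, KRT19 and CDH1 were higher in every SCFA library and EPCAM was lower, at 55.1 to 58.1 CPM without and 13.3 to 23.2 CPM with an SCFA. Among proximal tubule markers, GGT1 (179 to 221 CPM without, 59.9 to 73.96 CPM with) and PAX8 (362 to 414 CPM without, 128 to 160.1 CPM with) were lower in every SCFA library and SLC22A6 was at 0 in every library, while AQP1 (0.358 to 0.721 CPM without, 5.98 to 15.1 CPM with), CUBN, ANPEP, LRP2, MME and HNF4A were higher, the last 3 at 0 in every Ctrl and TN library. Leukocyte markers summed to at most 2.14 CPM. Endothelial markers summed to 0.143 to 0.287 CPM without and 2.18 to 3.61 CPM with an SCFA. Fibroblast markers summed to 10.4 to 13.1 CPM without and 37.0 to 67.1 CPM with an SCFA. Of these LUM (6.09 to 8.30 CPM without, 31.8 to 60.7 CPM with) and PDGFRA were higher in every SCFA library. DCN was lower in every SCFA library, and PDGFRB overlapped. The part that these shifts play in the proteasome genes was not tested.

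The first question was whether TNF-α alone moved the proteasome genes. None of the 43 tested members passed the threshold, a change of more than 1.5-fold with a Benjamini-Hochberg adjusted P under 0.05 in limma-voom, in TN against Ctrl. Over all 24342 genes tested, 1.30% passed it. Without adjustment 8 of the 43 had P under 0.05, beside 17% of all genes, and on the adjusted P alone 1 did, beside 3.51%. The log2 fold changes of the members ran from -0.16 to 0.27 with a median of 0.06, and 38 of 43 lay within 0.2 of 0. PSMA6, an α-ring subunit, was the member with the adjusted P under 0.05: its level in TN was higher by 0.27 ± 0.06 on the log2 scale (SE, limma-voom adjusted P = 0.0291), a 1.20-fold difference. The interval of PSMB5, which carries the chymotrypsin-like activity, ran from -0.15 to 0.07 on the log2 scale, which leaves out a change of 1.5-fold.

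Against TN, each SCFA group had a small set of subunit genes that fell, and the propionate groups also had 1 or 2 that rose, amid a transcriptome in which a large share of genes passed the threshold. In PRTN 1 member rose and 7 fell, 18.6% of the 43 tested against 40.6% of all genes, of which 23.9% rose and 16.7% fell. In BUTN none rose and 6 fell, against 37.9% of all genes, 23.1% up and 14.8% down. In TNPR 2 rose and 6 fell, 18.6% against 41.8%, with 24.9% of all genes up and 16.9% down. In TNBU none rose and 7 fell, 16.3% against 41.6%, with 25% of all genes up and 16.5% down. The falling members thus made up a share near that of all genes, and the rising ones a smaller share. Bulk RNA cannot tell fewer transcripts per cell from a shift in the cells sampled, and the 4 comparisons share the TN libraries. TNPR and TNBU also had a further 24 h after TNF-α, which no group had without an SCFA. Against TN, the SCFA and this later time cannot be told apart in TNPR and TNBU.

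The members were abundant and evenly measured, so the same counts were also set against genes at least as abundant as the lowest tested member. These genes share that floor and were not matched to the members in level. Over the 9226 genes with at least the level of PSMG4, the lowest of the tested members at 14.02 CPM on average, 40.0% passed in PRTN, 35.0% for BUTN, 41.8% for TNPR and 40.4% for TNBU. The median size of the change, without its sign, was 0.22, 0.19, 0.24 and 0.24 log2 units for members in PRTN, BUTN, TNPR and TNBU. Over the 9226 genes it was 0.46, 0.42, 0.49 and 0.47. On the adjusted P alone, 67.4% of members passed in PRTN, 60.5% for BUTN, 69.8% for TNPR and 65.1% for TNBU, beside 56.4%, 55.1%, 57.7% and 57.4% of all genes. Without adjustment 31, 30, 30 and 30 members had P under 0.05 in the same order, beside 60.7%, 59.5%, 61.8% and 61.4% of all genes. Both sets of shares are over all 24342 genes tested, less abundant ones included, and were not taken over the 9226.

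**Figure D1:**
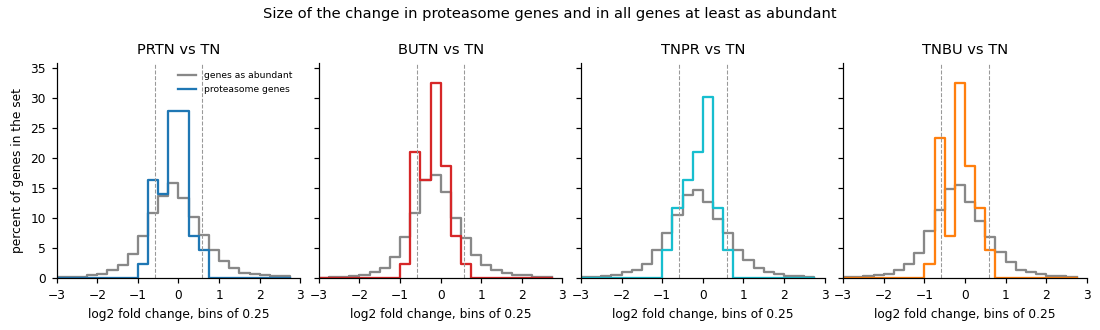
Share of genes (%) in bins of 0.25 log2 units of the fold change against TN, for the 43 tested proteasome genes (coloured) and the 9226 genes at least as abundant (grey), in PRTN, BUTN, TNPR and TNBU; dashed lines mark 1.5-fold either way. The proteasome genes sit between -0.90 and 0.65 in all panels, while the grey curve reaches past 2 log2 units on both sides.

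The median log2 fold change of the members was -0.09 for PRTN, -0.15 for BUTN, -0.03 for TNPR and -0.13 for TNBU. Over all genes tested it was 0.09, 0.08, 0.12 and 0.09. Over the 9226 genes at or above the level of the lowest tested member it was -0.11, -0.13, -0.13 and -0.14. Scaling by library size alone raised every value of these comparisons by about the same amount, moving the median of all genes to 0.24, 0.23, 0.29 and 0.29 and that of the members to 0.06, 0.00, 0.15 and 0.07. Under that scaling 3 members rose and 1 fell in PRTN, 1 and 1 for BUTN, 3 and 2 for TNPR, and 2 and 1 for TNBU, while 40.7%, 37.9%, 42.6% and 41.8% of all genes passed. Of all genes that passed, the share that was higher then moved from 58.9% to 68.5% for PRTN, from 60.9% to 71.2% for BUTN, from 59.6% to 69.8% for TNPR and from 60.2% to 72.0% for TNBU.

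The summed counts of the members showed the same dependence. As CPM of all counts, without TMM factors, they came to 5258 ± 60.9 in Ctrl (SD, n = 2), 5320 ± 4.38 in TN, 5435 ± 43.7 for PRTN, 5193 ± 118 for BUTN, 5574 ± 161 for TNPR and 5453 ± 13.2 for TNBU. Relative to TN these are differences of -1.16% in Ctrl, 2.15% for PRTN, -2.39% for BUTN, 4.77% for TNPR and 2.50% for TNBU. After TMM scaling the differences were -4.89%, -8.28%, -12.2%, -7.10% and -10.5%, so the direction turned in PRTN, TNPR and TNBU. No direction of the summed level can therefore be given for those groups.

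**Figure D2:**
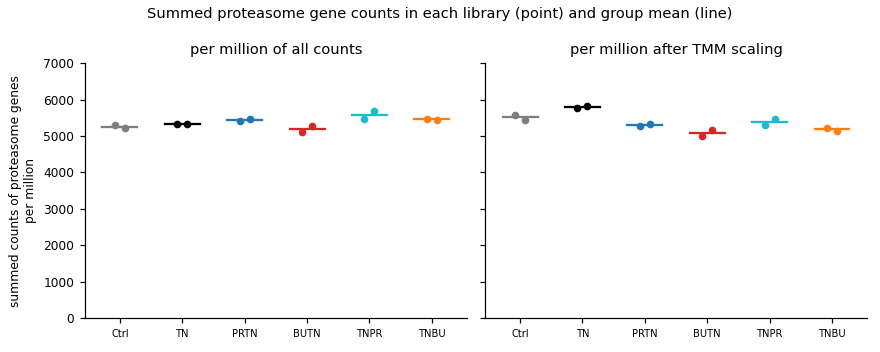
Summed level (CPM) of the 45 proteasome genes, in each library (points, 2 a group) and as the group mean (line), as a share of all counts (left) and after TMM scaling (right). On the left the 12 libraries lie between 5110 and 5688, and on the right the SCFA libraries lie below both TN libraries.

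The members that fell were spread over both particles. In the α ring, which forms the outer wall of the core and gates its entrance, 2 of 7 genes fell in PRTN, BUTN and TNBU and 1 of 7 for TNPR. In the β ring 1 of the 4 structural genes fell in each group and none of the 3 catalytic genes did. In the ATPase ring 1 of 6 fell in each, and in the lid 3 of 8 fell in PRTN, TNPR and TNBU and 2 for BUTN. None of the 3 other base subunits, the 7 assembly chaperones, the 4 activators or the inhibitor PSMF1 fell.

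**Figure D3:**
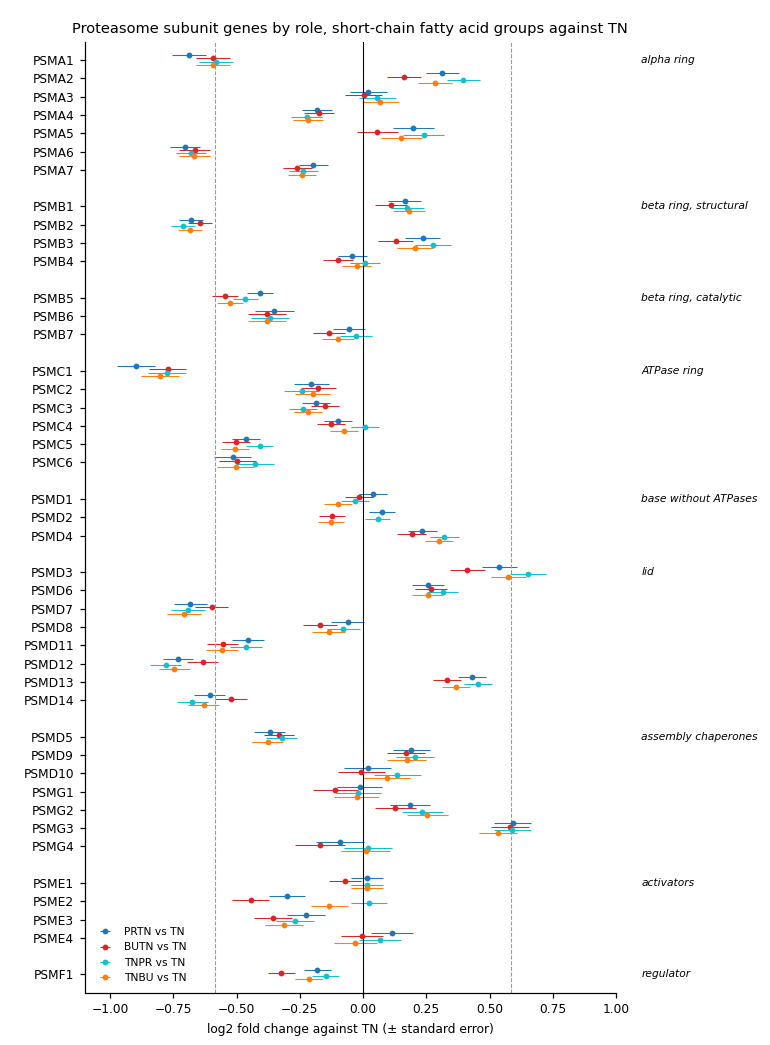
Log2 fold change against TN (x axis, ± standard error) of the 43 tested proteasome genes (y axis), grouped by role, with 1 coloured point for each SCFA group; dashed lines mark 1.5-fold either way. PSMC1, PSMD12, PSMA6 and PSMB2 lie left of the lower limit in all 4 groups, PSMG3 lies close to the upper one, and the 4 groups of PSME2 range from -0.44 in BUTN to 0.02 in TNPR.

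PSMC1 encodes Rpt2, an ATPase of the base whose tail helps to open the gate of the core, and its expected counts fell the furthest in PRTN, BUTN and TNBU. The gene (ENSG00000100764.13) lies on the plus strand of chromosome 14, at 90256527 to 90275429 in GRCh38. Its level was 60.7 and 58.7 CPM for Ctrl, 63.2 and 59.8 for TN, 32.2 and 33.9 for PRTN, 35.1 and 36.9 for BUTN, 36.1 and 35.8 for TNPR and 37.7 and 33.02 for TNBU. All 8 SCFA libraries lay below the 4 others. The log2 fold change against TN was -0.90 ± 0.07 for PRTN (SE, limma-voom adjusted P = 5.08e-07), -0.77 for BUTN, -0.78 for TNPR and -0.80 for TNBU. It passed the threshold in all 4 groups under library-size scaling too, with values from -0.74 to -0.60.

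The level of PSMC1 is uncertain, because its processed pseudogenes held as many reads as it did. The 13 pseudogenes listed for it, PSMC1P1 foremost, summed to between 107% and 128% of the expected counts of PSMC1, and PSMC1P1 alone had 62.5 and 63.1 CPM in TN and 35.9 and 35.4 CPM in PRTN. PSMC1P1 had a log2 fold change of -0.82 for PRTN against TN (limma-voom adjusted P = 1.02e-06). With the pseudogene counts added to PSMC1, an alternative chosen after seeing the data, the sum was 135 and 131 CPM in TN and 73.5 and 74.3 CPM in PRTN. Its log2 fold change was then -0.85 for PRTN, -0.75 for BUTN, -0.82 for TNPR and -0.81 for TNBU, with standard errors of 0.06. The sum passed the threshold in all 4 groups, as the gene did. For the other 11 members with a pseudogene of their name, those held at most 2.51% of the parent's counts.

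PSMD12 (Rpn5, a scaffold subunit of the lid; ENSG00000197170.9; chromosome 17, 67337916 to 67366605, minus strand) gave 115 and 113 CPM for Ctrl, 139.6 and 129.6 for TN, 79.99 and 82.1 for PRTN, 84.8 and 88.6 for BUTN, 78.8 and 77.8 for TNPR and 83.01 and 77.4 for TNBU. It was the member with the largest fall in TNPR, at -0.78 ± 0.06 (SE, limma-voom adjusted P = 3.09e-07), and its log2 fold change was -0.73 for PRTN, -0.63 for BUTN and -0.75 for TNBU. Its level in TN was above that in Ctrl by 0.23 on the log2 scale, short of the threshold (limma-voom adjusted P = 0.0544), and the SCFA libraries lay below those of Ctrl as well.

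PSMA6 (ENSG00000100902.10; chromosome 14, 35278633 to 35317493, plus strand) gave 204 and 191 CPM for Ctrl, 230.3 and 244 for TN, 143 and 149 for PRTN, 146 and 153 for BUTN, 149 and 147 for TNPR and 154 and 145 for TNBU. Its log2 fold change was -0.70 ± 0.06 for PRTN (SE, limma-voom adjusted P = 6.95e-07), -0.67 for BUTN, -0.68 for TNPR and -0.67 for TNBU. A protein-coding gene that overlaps it on the same strand held 1.85% to 5.56% of its counts.

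PSMB2 (a structural β subunit; ENSG00000126067.11; chromosome 1, 35599541 to 35641526, minus strand) gave 276 and 285 CPM for Ctrl, 290.0 and 289.7 for TN, 179 and 183 for PRTN, 185 and 186 for BUTN, 175 and 179 for TNPR and 181 and 180.1 for TNBU. It had the smallest standard error of the falling genes. The fit gave a log2 fold change of -0.68 ± 0.05 for PRTN (SE, limma-voom adjusted P = 1.43e-07), -0.64 for BUTN, -0.71 for TNPR and -0.68 for TNBU.

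PSMD7 (Rpn8, the lid partner of the deubiquitinase; ENSG00000103035.10; chromosome 16, 74296814 to 74306288, plus strand) gave 162 and 159 CPM for Ctrl, 179 and 167 for TN, 109 and 107 for PRTN, 113 and 115 for BUTN, 111 and 103 for TNPR and 112 and 99.7 for TNBU. Against TN its log2 fold change was -0.68 for PRTN, -0.60 for BUTN, -0.69 for TNPR and -0.71 ± 0.07 for TNBU (SE, limma-voom adjusted P = 1.74e-06). The SCFA libraries and the others did not overlap. In BUTN it sat next to the limit and fell short of it with DESeq2, or without TN replicate 1, at -0.58 in both.

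PSMD14 (Rpn11, the deubiquitinase of the lid) and PSMA1 also fell, and are named after their values were seen. PSMD14 had log2 fold changes of -0.61 for PRTN, -0.67 for TNPR and -0.63 for TNBU, and -0.52 for BUTN, where it missed the fold limit. Without TNBU replicate 2 the value in TNBU was -0.55, short of the limit. Its levels were 149 and 143 CPM in TN and 89.4 to 104 CPM in the 8 SCFA libraries. PSMA1 had -0.69 for PRTN, -0.59 for BUTN and -0.59 for TNBU, and -0.58 for TNPR, where it missed the limit. Its values in BUTN and TNBU fell short with DESeq2 (-0.58 in both), without BUTN replicate 1 (-0.57) and without TNBU replicate 2 (-0.57). PSMA1 overlaps a read-through gene on the same strand whose counts ranged from 0 to 12.9% of its own, a spread seen within groups too, so its value carries that added uncertainty.

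**Figure D4:**
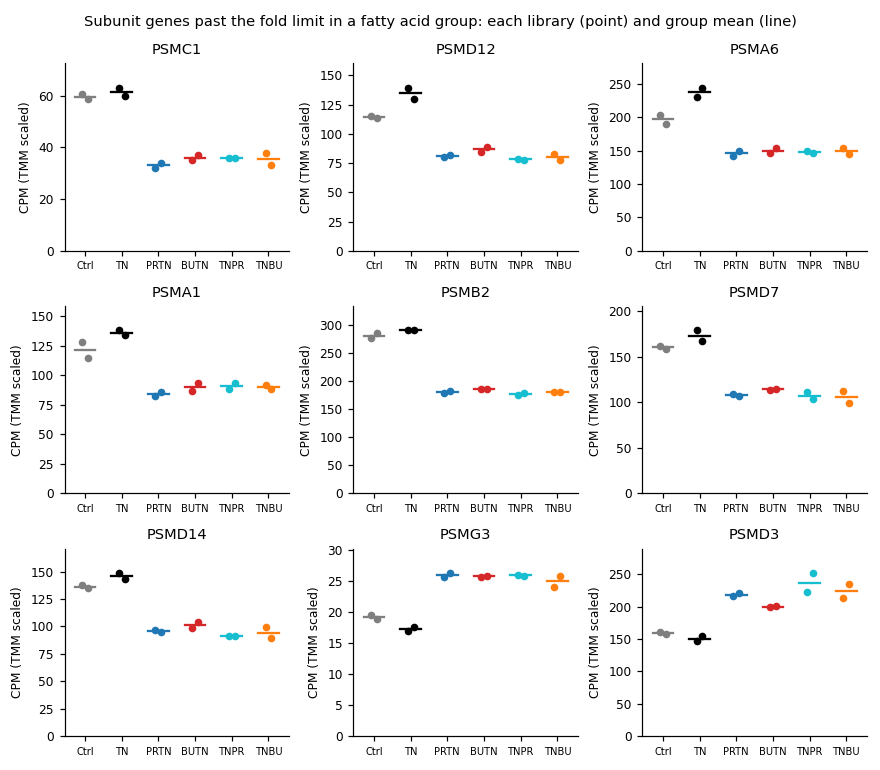
Level (TMM-scaled CPM, y axis from 0) of the 9 proteasome genes that passed the threshold in an SCFA group, in each library (points, 2 a group) and as the group mean (line). The 8 SCFA libraries lie below the Ctrl and TN libraries for PSMC1, PSMD12, PSMA6, PSMA1, PSMB2, PSMD7 and PSMD14, and above them for PSMG3 and PSMD3.

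With library size as the sole scaling the falls kept their sign and most dropped below 1.5-fold. PSMD12 then passed in TNPR alone, at -0.61, and had -0.58 for PRTN, -0.48 for BUTN and -0.55 for TNBU. PSMA6 (-0.55 to -0.47), PSMB2 (-0.54 to -0.49), PSMD7 (-0.53 to -0.44), PSMD14 (-0.50 to -0.37) and PSMA1 (-0.53 to -0.40) passed in no group. No member passed a limit of 2-fold in any SCFA group, where 27.5%, 25.5%, 28.8% and 28.4% of all genes did in PRTN, BUTN, TNPR and TNBU (limma-voom; without adjustment and fold limit the member counts were those given above).

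PSMG3, a chaperone in the assembly of the α ring (ENSG00000157778.8; chromosome 7, 1567332 to 1571005, minus strand), was one of the rising genes. Its level was 19.6 and 18.9 CPM for Ctrl, 16.9 and 17.5 for TN, 25.7 and 26.3 for PRTN, 25.7 and 25.9 for BUTN, 26.03 and 25.8 for TNPR and 24.1 and 25.8 for TNBU. Every SCFA library was above every other library. Its log2 fold change was 0.59 ± 0.07 for PRTN (SE, limma-voom adjusted P = 1.81e-05) and 0.59 for TNPR, where it passed, and 0.58 for BUTN and 0.53 for TNBU, where it stayed short of 1.5-fold. Leaving out TN replicate 1 took it to 0.54 in both PRTN and TNPR. It also fell short in PRTN without PRTN replicate 2 (0.57), and in TNPR without TN replicate 2 (0.58) or TNPR replicate 1 (0.54). By contrast, library-size scaling took it past the limit in all 4 groups, at 0.73 to 0.76. The antisense gene PSMG3-AS1, which overlaps it, held 4.40% to 13.1% of its counts and had a log2 fold change of 1.88 for PRTN (limma-voom adjusted P = 3.30e-05); the strand setting of the authors' counting is not given in the sources used here.

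PSMD3 (Rpn3, a lid subunit; ENSG00000108344.14; chromosome 17, 39980807 to 39997959, plus strand) gave 161 and 158 CPM for Ctrl, 146 and 154 for TN, 216 and 221 for PRTN, 199.6 and 201 for BUTN, 222 and 252 for TNPR and 213 and 235 for TNBU. It passed in TNPR alone, with 0.65 ± 0.07 (SE, limma-voom adjusted P = 4.86e-06), and had 0.54 for PRTN, 0.41 for BUTN and 0.57 for TNBU. Without TNPR replicate 2, the higher of the pair, the value in TNPR was 0.56, short of the limit, while under library-size scaling it passed in PRTN, TNPR and TNBU. In TNBU it passed without TN replicate 2 (0.60) or TNBU replicate 1 (0.61).

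The promoters of 4 of these genes are shown because the genes moved in different ways and NFE2L1 and the CCAAT-binding factor NF-Y are known regulators of subunit genes. Each is the 250 bases ahead of the RefSeq transcription start in GRCh38.p14, written 5′ to 3′ on the strand of the gene, with capitals for each match to TGACNNNGC, the core of the antioxidant response element, or to CCAAT, either on both strands. PSMC1 (chr14:90256303-90256552, plus strand) and PSMD12 (chr17:67366578-67366827, minus strand) fell in all 4 groups, as did PSMD7 (chr16:74296564-74296813, plus strand), and PSMD3 (chr17:39980557-39980806, plus strand) had values above 0 in all 4.
PSMC1: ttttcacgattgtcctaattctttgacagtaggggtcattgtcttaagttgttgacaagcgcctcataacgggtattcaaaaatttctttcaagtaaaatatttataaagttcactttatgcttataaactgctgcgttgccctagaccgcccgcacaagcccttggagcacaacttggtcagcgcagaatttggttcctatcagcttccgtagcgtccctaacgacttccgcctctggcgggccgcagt
PSMD12: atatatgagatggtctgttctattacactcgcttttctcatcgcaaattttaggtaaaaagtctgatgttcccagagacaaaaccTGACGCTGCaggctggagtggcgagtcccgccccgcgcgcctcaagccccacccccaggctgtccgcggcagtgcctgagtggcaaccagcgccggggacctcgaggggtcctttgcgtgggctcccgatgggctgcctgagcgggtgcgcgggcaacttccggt
PSMD7: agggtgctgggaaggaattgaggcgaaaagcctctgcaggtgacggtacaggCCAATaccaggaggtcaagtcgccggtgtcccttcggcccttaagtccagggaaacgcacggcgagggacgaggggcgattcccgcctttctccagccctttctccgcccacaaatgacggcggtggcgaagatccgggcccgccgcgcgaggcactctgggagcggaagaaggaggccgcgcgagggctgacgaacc
PSMD3: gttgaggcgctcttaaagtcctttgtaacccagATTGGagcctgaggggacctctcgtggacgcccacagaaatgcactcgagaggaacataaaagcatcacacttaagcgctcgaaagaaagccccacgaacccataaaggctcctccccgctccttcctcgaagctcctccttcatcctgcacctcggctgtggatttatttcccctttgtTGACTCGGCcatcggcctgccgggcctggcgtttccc
PSMC1 held neither motif, PSMD12 held 1 match to TGACNNNGC, PSMD7 held 1 to CCAAT and PSMD3 held 1 to each. RefSeq windows were found for 39 of the 45 members, in 47 windows, and not for PSMA7, PSMB1, PSMB6, PSMB7, PSMD4 and PSMG3. TGACNNNGC was in 12 of the 47 windows (25.5%) and in 10.9% of all 35116 windows, and CCAAT was in 18 (38.3%) and in 32.0% of all. A match describes letters in this window and no binding.

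The catalytic genes changed less than 2 of their inducible counterparts. The catalytic genes were PSMB5, PSMB6 (caspase-like activity) and PSMB7 (trypsin-like activity), and none passed the threshold in any comparison. PSMB5 (ENSG00000100804.18; chromosome 14, 23016543 to 23035230, minus strand) gave 144 and 146 CPM for Ctrl, 141 and 142 for TN, 106 and 107 for PRTN, 96.03 and 97.7 for BUTN, 101 and 103 for TNPR and 96.5 and 99.4 for TNBU. The SCFA libraries did not overlap with the others. The fit gave a log2 fold change of -0.41 for PRTN, -0.54 ± 0.05 for BUTN (SE, limma-voom adjusted P = 1.95e-06), -0.46 for TNPR and -0.53 for TNBU, each short of 1.5-fold.

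PSMB6 (ENSG00000142507.9; chromosome 17, 4796144 to 4798502, plus strand) gave 82.1 and 74.99 CPM for Ctrl, 69.9 and 77.5 for TN, 58.6 and 56.96 for PRTN, 55.2 and 57.9 for BUTN, 56.5 and 57.6 for TNPR and 53.7 and 59.6 for TNBU. Its log2 fold change lay between -0.38 and -0.35 in the 4 groups, with limma-voom adjusted P from 9.58e-04 to 0.00161. PSMB7 (ENSG00000136930.12; chromosome 9, 124353465 to 124415444, minus strand) gave 164 and 159 CPM for Ctrl, 167 and 179 for TN, 165 and 169 for PRTN, 155 and 160.5 for BUTN, 162 and 178 for TNPR and 158 and 166 for TNBU, with overlapping groups. Its differences from TN were between -0.13 and -0.03 with 95% intervals from -0.27 at the lowest to 0.11 at the highest, so a change of 1.5-fold lies outside them.

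The immunoproteasome genes, which are not members, are given for scale. PSMB8 (the counterpart of PSMB5) gave 43.9 and 43.9 CPM for Ctrl, 44.6 and 44.7 for TN, 12.8 and 13.1 for PRTN, 16.3 and 16.1 for BUTN, 16.2 and 14.6 for TNPR and 17.2 and 16.1 for TNBU, and had log2 fold changes of -1.79 for PRTN, -1.46 for BUTN, -1.53 for TNPR and -1.42 for TNBU (limma-voom adjusted P at most 1.21e-08). PSMB10 (the counterpart of PSMB7) gave 36.1 and 35.6 CPM for Ctrl, 38.2 and 39.1 for TN, 3.33 and 3.06 for PRTN, 3.5 and 2.7 for BUTN, 3.58 and 2.79 for TNPR and 4.44 and 4.24 for TNBU, and had log2 fold changes of -3.59, -3.65, -3.60 and -3.15 in the same order (limma-voom adjusted P at most 1.68e-09). PSMB9 (the counterpart of PSMB6) gave 11.6 and 10.7 CPM for Ctrl, 9.72 and 13.5 for TN, 10.9 and 10.6 for PRTN, 11.8 and 12.9 for BUTN, 12.6 and 10.04 for TNPR and 12.7 and 11.9 for TNBU, with log2 fold changes from -0.10 to 0.11. TNF-α alone left all 3 short of the threshold, with log2 fold changes of 0.02, 0.11 and 0.04 for PSMB8, PSMB10 and PSMB9.

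Per kilobase of the canonical transcript, PSMB8 stood at 28.0% to 29.4% of PSMB5 in the Ctrl and TN libraries and at 11.2% to 16.6% in the SCFA libraries. PSMB10 stood at 22.0% to 23.0% of PSMB7 in Ctrl and TN and at 1.58% to 2.84% with an SCFA. PSMB9 stood at 11.3% to 14.1% of PSMB6 without and at 14.1% to 19.3% with an SCFA, where the highest value without (14.07%, TN replicate 2) and the lowest with (14.13%, TNPR replicate 2) lay next to each other. A gene that overlaps PSMB10 on the same strand held 13.2% to 60.3% of its counts, and PSMB8 and PSMB9 overlap each other and PSMB8-AS1.

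**Figure D5:**
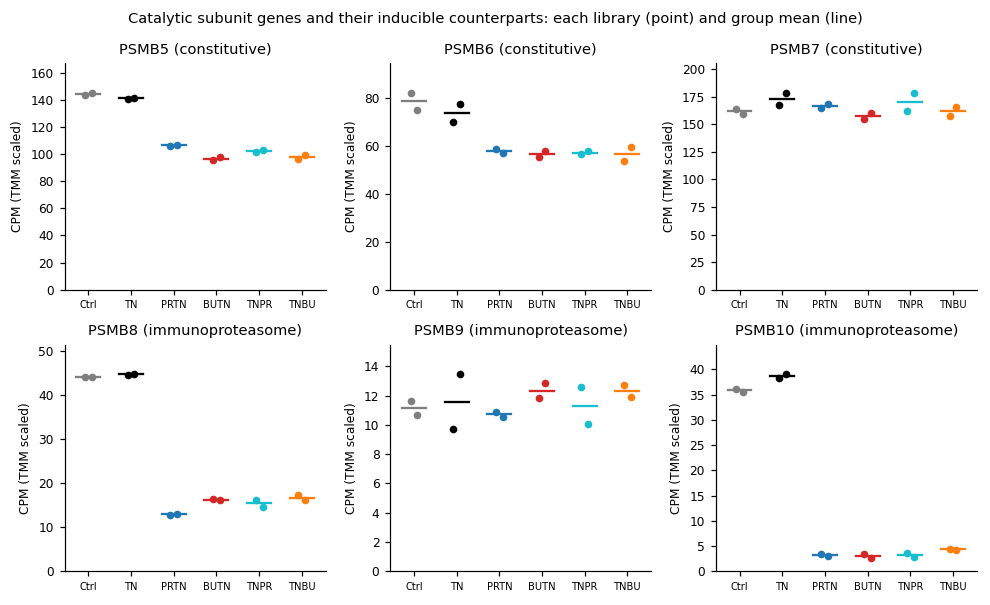
Level (TMM-scaled CPM, y axis from 0) of the constitutive catalytic genes PSMB5, PSMB6 and PSMB7 (top) and of PSMB8, PSMB9 and PSMB10 (bottom), in each library (points, 2 a group) and as the group mean (line). PSMB8 and PSMB10 drop from 44.6 and 38.6 CPM in TN to 12.9 and 3.19 CPM in PRTN, while PSMB5 goes from 141 to 107 CPM.

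Among the members that passed in no group, the log2 fold changes against TN differed in sign within the α ring. There PSMA2 had log2 fold changes of 0.16 to 0.40, while PSMA7 and PSMA4 had -0.26 to -0.17. PSMA3 and PSMA5 had values from 0.00 to 0.24. Among structural β genes PSMB1 and PSMB3 had values from 0.11 to 0.28 and PSMB4 from -0.10 to 0.01. PSMA2 shares its strand with a read-through gene that held 15.2% to 20.6% of its counts, and PSMA3 overlaps PSMA3-AS1, which held 24.3% to 43.7%.

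In the ATPase ring the 5 genes beside PSMC1 had values of 0.01 or less. PSMC5 and PSMC6 had values from -0.52 to -0.41, PSMC2 and PSMC3 from -0.24 to -0.15, and PSMC4 from -0.13 to 0.01. FTSJ3, which overlaps PSMC5 on the opposite strand, held 58.2% to 106% of the counts of PSMC5. PMPCB, which overlaps PSMC2 on the same strand, held 63.7% to 78.2% of those of PSMC2. After TMM scaling, 5 of the 6 ATPase genes were lower on the adjusted P alone in each of the 4 groups. None was higher, and 25.8%, 25.4%, 26% and 26% of all genes were lower. PSMC6 and the lid scaffold PSMD11 (-0.56 to -0.45) came past the limit when a TN replicate was left out, PSMC6 without TN replicate 2 (-0.61 for PRTN, -0.59 for BUTN and in TNBU) and PSMD11 without TN replicate 1 (-0.60 for BUTN, -0.59 for TNBU). PSMD11 did so in TNBU also without TNBU replicate 1, at -0.66. Under library-size scaling PSMC5 and PSMC6 kept their sign, at -0.36 to -0.24. PSMC4 then lay above both TN libraries in PRTN, TNPR and TNBU. For PSMC2 and PSMC3 the BUTN and TNBU libraries then overlapped with those of TN.

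The 3 other base subunits, which bind ubiquitin and shuttle proteins, had small values. PSMD2, the member with the most reads, gave 539 and 557 CPM for Ctrl, 568 and 571 for TN, 592 and 608 for PRTN, 517 and 528 for BUTN, 602 and 583 for TNPR and 543 and 501 for TNBU. Against TN its log2 fold change was 0.08 for PRTN, -0.12 for BUTN, 0.06 for TNPR and -0.13 for TNBU. None of these values of PSMD2 passed the adjusted P of 0.05 in limma-voom. With library size as the sole scaling, all SCFA libraries of PSMD2 lay above both TN libraries. PSMD1 stayed between -0.10 and 0.04, and PSMD4, a ubiquitin receptor, between 0.19 and 0.32. PSMD4 was the 1 of these 3 that was higher on the limma-voom adjusted P alone, in all 4 groups. In the lid PSMD6 (0.26 to 0.31) and PSMD13 (0.33 to 0.45) had positive values and PSMD8 values from -0.17 to -0.06.

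Of the assembly chaperones, PSMG4, the tested member with the fewest reads, gave 13.3 and 13.6 CPM for Ctrl, 14.1 and 15.1 for TN, 13.3 and 14.1 for PRTN, 12.5 and 13.4 for BUTN, 14.1 and 15.5 for TNPR and 13.8 and 15.6 for TNBU, and its log2 fold changes of -0.17 to 0.02 carried standard errors of 0.10. PSMG1, the partner of PSMG2, had -0.11 to -0.01, and PSMG2 had 0.13 to 0.25. On the opposite strand, SPIRE1 shares 65 bases with PSMG2 and held 153% to 243% of the counts of PSMG2. TUBB2B, also opposite, shares 328 bases with PSMG4 and held 1205% to 3958% of the counts of PSMG4. The ATPase chaperones PSMD5, PSMD9 and PSMD10 had -0.38 to -0.32, 0.17 to 0.21 and -0.01 to 0.14. Among the activators, PSME1 had -0.07 to 0.02, PSME3 had -0.35 to -0.22 and PSME4 had -0.03 to 0.11. The inhibitor PSMF1 had -0.32 to -0.15, with all SCFA libraries below the others after TMM scaling. With library size as the sole scaling, its SCFA libraries overlapped with those of TN.

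The libraries were also compared by whether their ranges met, with no fold limit. For 10 of the 43 members (23.3%) all 8 SCFA libraries lay above the 4 Ctrl and TN libraries, beside 27.6% of all genes tested, and for 17 (39.5%) they lay below, beside 23.4%. With library-size scaling these counts were 14 and 13, beside 32.0% and 18.6%.

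The timing of the SCFA, before or after TNF-α, was compared within each SCFA. No member passed the threshold in TNPR against PRTN or in TNBU against BUTN, where 0.160% and 0.267% of all genes passed. Without adjustment 1 and 2 of the 43 had P under 0.05 in limma-voom, beside 11.2% and 14.4% of all genes. The median log2 differences of the members were 0.02 and 0.02, and 42 of 43 lay within 0.2 of 0 in each comparison. The 1 outside was PSME2 (PA28β, an interferon-inducible activator subunit), named after its values were seen. RNF31, which overlaps PSME2 on the opposite strand, held 36.4% to 61.4% of the counts of PSME2. PSME2 gave 93.8 and 85.7 CPM for Ctrl, 105 and 99.8 for TN, 79.3 and 87.3 for PRTN, 72.8 and 77.8 for BUTN, 107 and 102 for TNPR and 96.1 and 90.9 for TNBU. It was higher by 0.32 ± 0.07 for TNPR than in PRTN (SE, limma-voom adjusted P = 0.119) and by 0.31 ± 0.07 for TNBU than in BUTN (limma-voom adjusted P = 0.0732), with higher levels in both later libraries than in both earlier ones in each pair and no call after adjustment. In these comparisons the time since TNF-α and the time of SCFA differ together and cannot be told apart.

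The genes around the proteasome were followed through a list of 38 tested genes: partners of the proteasome, the transcription factors of its subunit genes, ubiquitin genes and shuttle factors. None passed in TN against Ctrl. With propionate 5 rose and 10 fell in PRTN, where 23.9% of all genes rose and 16.7% fell, and 5 rose and 9 fell in TNPR, where the shares were 24.9% and 16.9%. With butyrate 3 rose and 7 fell in BUTN, beside 23.1% and 14.8% of all genes, and 4 rose and 9 fell in TNBU, beside 25% and 16.5%. NFE2L1 gave 262 and 279.9 CPM for Ctrl, 262 and 286 for TN, 171 and 172 for PRTN, 177 and 177 for BUTN, 165 and 178 for TNPR and 183 and 185 for TNBU. It fell in PRTN (-0.68), BUTN (-0.63) and TNPR (-0.67 ± 0.06, limma-voom adjusted P = 1.07e-06) and had -0.57 for TNBU, short of the limit. In TNBU it passed without TN replicate 1 (-0.65) or TNBU replicate 1 (-0.60). Under library-size scaling it had -0.52 to -0.38 and passed in none.

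NFE2L3, a relative of NFE2L1, went the other way. It gave 29.7 and 29.3 CPM for Ctrl, 42.4 and 40.5 for TN, 77.2 and 77.9 for PRTN, 81.2 and 84.9 for BUTN, 72.96 and 87.6 for TNPR and 87.7 and 91.3 for TNBU, and rose by 0.90 for PRTN, 1.00 for BUTN, 0.95 for TNPR and 1.11 ± 0.08 for TNBU (SE, limma-voom adjusted P = 2.44e-07) on the log2 scale. In TN against Ctrl its difference was 0.49, under 1.5-fold (limma-voom adjusted P = 0.0114). NFE2L2 gave 134 and 135 CPM for Ctrl, 155 and 143 for TN, 126 and 125 for PRTN, 137 and 133 for BUTN, 103 and 107 for TNPR and 115 and 103 for TNBU. Its log2 fold change was -0.24 for PRTN, -0.14 for BUTN, -0.50 for TNPR and -0.45 for TNBU, short of 1.5-fold in each, and the TNPR and TNBU libraries lay below all others.

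NGLY1, which with DDI2 processes the NFE2L1 protein, gave 24.03 and 23.2 CPM for Ctrl, 23.9 and 23.6 for TN, 17.5 and 17.4 for PRTN, 16.4 and 15.98 for BUTN, 17.8 and 18.2 for TNPR and 16.8 and 16.6 for TNBU, with log2 fold changes of -0.55 to -0.40. Its SCFA libraries lay below the others and it passed in none of the groups. DDI2 gave 49.8 and 59.04 CPM for Ctrl, 62.9 and 58.7 for TN, 67.5 and 59.3 for PRTN, 55.5 and 60.1 for BUTN, 57.6 and 54.4 for TNPR and 69.3 and 49.2 for TNBU, with log2 fold changes of -0.12 to 0.06 and overlapping groups. POMP, which matures the core particle, gave 63.9 and 55.5 CPM for Ctrl, 71.1 and 71.4 for TN, 69.03 and 68.5 for PRTN, 64.7 and 66.97 for BUTN, 66.8 and 72.8 for TNPR and 67.95 and 70.5 for TNBU, with log2 fold changes of -0.11 to -0.03 against TN.

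Among the other listed genes, named after their values were seen, KIAA0368 (ECM29, a proteasome adaptor) had the largest fall, with log2 fold changes of -2.24 for PRTN, -1.98 for BUTN, -2.29 for TNPR and -2.06 for TNBU. The shuttle factor UBQLN2 had -1.06 to -0.93 over the 4 groups. PITHD1, a partner of the regulatory particle, rose by 0.82, 0.73, 0.82 and 0.87, and the ubiquitin gene UBB by 0.64, 0.65, 0.63 and 0.64, while the ubiquitin fusion gene RPS27A had -0.63, -0.63, -0.66 and -0.66.

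Levels were compared between genes per kilobase of the canonical transcript of GENCODE 44. In every library PSMB1 was the highest and PSMA4 the lowest of the 14 core genes, and the highest was 10.2 to 14.9 times the lowest. The canonical transcript of PSMA4 has 4378 bases and that of PSMB1 has 891. The ratio rests on these lengths, and which transcripts the cells held was not tested. Among the 17 regulatory particle genes PSMD2 was the highest and PSMC1 the lowest in every library. The canonical transcript of PSMC1 has 4390 bases, and the counts of its pseudogenes are left out here. With those counts added, PSMC1 lay above PSMD12 in both Ctrl libraries, so its place as the lowest is uncertain. The SD of the log2 level across these 17 genes was 0.85 to 0.90 in the Ctrl and TN libraries and 1.04 to 1.11 in the SCFA libraries, and without PSMC1 it was 0.68 to 0.73 and 0.81 to 0.88. Across the 14 core genes it was 1.05 to 1.09 and 1.08 to 1.11. For the regulatory particle the ranges with and without an SCFA did not overlap, and for the core particle they did.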

How the data were processed

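RNA-seq was measured in 12 libraries of HK2 cells in 6 groups of 2. The authors deposited an expected count for every gene, estimated with STAR and RSEM on GRCh38 and GENCODE 26 after quality control with FastQC, per the submitters' processing notes and the methods (FastQC 0.11.5, STAR 2.6.1a; the RSEM version and strand setting are not given in the sources used here). RSEM divides reads that fit several genes, and 26 of the 45 members had a count that was not whole in at least 1 library.

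Here, genes with a geometric mean of count plus 1, less 1, of at least 1 were kept (24342 genes), scaled with TMM in edgeR 4.0.16 and tested with limma-voom (limma 3.58.1, R 4.3.3), as in the authors' methods, in 1 model of all 12 libraries. A gene was called when it changed by more than 1.5-fold with a Benjamini-Hochberg adjusted P under 0.05 over all genes tested. CPM values are TMM scaled unless stated. Library totals were 27269986 to 33851130, and 3 counts, used as the floor, are 0.0886 to 0.110 CPM. Positions and transcript lengths come from GENCODE 44, of the same build as the files.

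The members and lists were chosen with earlier results of these data known. Full values are given for PSMB5, PSMB6 and PSMB7, for the 3 called members with the largest rise and the 3 with the largest fall in each SCFA group, for members called in TN against Ctrl or between times (none), for those with the highest and lowest mean CPM, and for PSMB8, PSMB9, PSMB10, NFE2L1, NFE2L2, NFE2L3, DDI2, NGLY1 and POMP; every other member is accounted for by role, by its range of fold changes, and genes named beyond this rule for their values are said to be so. The replicates are biological per the labels, without a word on how they were kept apart. Replicate libraries differed by more than counting noise (chi-square per gene of 3.35 to 20.1), so no pair was counted as 1 sample; this does not show that they came from separate cultures.

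A marker gene of the proximal tubule list, and the sum that holds it, are not reported here. Alternatives were DESeq2 1.42.0, the quasi-likelihood test of edgeR, other size factors, library size alone, other filters, fits of only the groups compared, a replicate block, other fold limits and the omission of each replicate.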

Additional observations from a re-analysis of the deposited data

Results flagged for a closer look

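PSMD2 is a base subunit and the member with the most reads. After TMM scaling it lay above both TN libraries in both propionate libraries and below them in both butyrate libraries, at either time. With library size as the sole scaling, PSMD2 lay above both TN libraries in the butyrate libraries too. Its log2 fold change against TN was 0.0754 for PRTN, -0.124 for BUTN, 0.0574 for TNPR and -0.126 for TNBU, none with an adjusted P under 0.05 in limma-voom; the doses differ, and the difference was not tested. PSMD1 lay above both TN libraries in PRTN (0.0403) and below them in TNPR (-0.0323) after TMM scaling. With library size as the sole scaling, PSMD1 lay above both TN libraries in PRTN and in TNPR. The test of TNPR against PRTN gave -0.07 ± 0.05 on the log2 scale (SE, limma-voom adjusted P = 0.648).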

How the results depend on the processing

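With 2 libraries a group, few degrees of freedom and 1 cell line, the calls describe these libraries, and changes near 1.5-fold cannot be placed firmly on either side of that limit. Read sharing between genes, pseudogenes and overlapping genes rests on the authors' counting. Overlapping genes are named above for some members only. The cause of each shift below was not tested unless the setting names it.

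Scaled by library size alone, 4, 2, 5 and 3 members were called against TN in PRTN, BUTN, TNPR and TNBU, beside 40.7%, 37.9%, 42.6% and 41.8% of all genes, and the median log2 fold change was 0.00848 in TN against Ctrl, turned sign to 0.0638, 0.00258, 0.147 and 0.0698 in PRTN, BUTN, TNPR and TNBU, and was 0.0406 in TNPR against PRTN and 0.0586 in TNBU against BUTN. With no fold limit, 1 member was called in TN against Ctrl, beside 3.51% of all genes. In PRTN, BUTN, TNPR and TNBU 29, 26, 30 and 28 were, beside 56.4%, 55.1%, 57.7% and 57.4%. With a limit of 2-fold, 0 were called in each of these 4, beside 27.5%, 25.5%, 28.8% and 28.4% of all genes. Unadjusted, 31, 30, 30 and 30 had a limma-voom P under 0.05, beside 60.7%, 59.5%, 61.8% and 61.4%. At 1.5-fold DESeq2 called 8, 5, 8 and 7, beside 35.7%, 32.2%, 37% and 35.9% of the genes with an adjusted P. With no filter beyond 1 count in 1 library, the medians were -0.11, -0.18, -0.0452 and -0.15 in the same order. With the default filter of edgeR they were -0.128, -0.184, -0.0514 and -0.150 in PRTN, BUTN, TNPR and TNBU. With only the groups compared they were -0.108 in PRTN, -0.0542 in TNPR and -0.140 in TNBU. For TNBU, DESeq2 gave -0.11, other size factors -0.11 and a filter that drops any gene with a count of 0 gave -0.12. Leaving out 1 replicate at a time gave medians of 0.0591 to 0.0944 in TN against Ctrl, -0.156 to -0.0628 for PRTN, -0.206 to -0.140 for BUTN, -0.0725 to -0.0485 for TNPR, -0.206 to -0.0829 for TNBU, -0.00147 (without TNPR replicate 2) to 0.0345 in TNPR against PRTN and 0.00516 to 0.0439 in TNBU against BUTN; the median in TNPR thus moved from -0.03 to -0.07 without either TN replicate or TNPR replicate 1 and to -0.05 without TNPR replicate 2, in TNBU it was -0.21 without TNBU replicate 1 and -0.08 without TNBU replicate 2, and in PRTN it was -0.16 without TN replicate 1 and -0.06 without PRTN replicate 1. In PRTN, BUTN and TNBU the number of called members depended on which replicate was left out. In TN against Ctrl and between times no member was called at 1.5-fold with all libraries, in limma-voom, DESeq2 or edgeR. Unadjusted, 8, 1 and 2 members had a limma-voom P under 0.05, beside 17%, 11.2% and 14.4% of all genes.

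The summed share differed from TN after TMM scaling by -4.89% for Ctrl, -8.28% for PRTN, -12.2% for BUTN, -7.10% for TNPR and -10.5% for TNBU, with the sign turned in PRTN, TNPR and TNBU. Without mitochondrial genes in the total the difference in TNBU was 1.17%. Leaving out 1 replicate at a time gave -1.97% to -0.354% for Ctrl, 1.57% to 2.74% for PRTN, -3.95% to -0.824% for BUTN, 2.63% to 6.91% for TNPR and 2.32% to 2.67% for TNBU.

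The replicate block changed no call of a member. With it and without it 8, 6, 8 and 7 members were called in PRTN, BUTN, TNPR and TNBU. Over all genes 40.7%, 37.8%, 42% and 41.5% were called with it. The medians of the members with it were -0.09, -0.15, -0.03 and -0.13. Same-numbered replicates deviated together (correlation over 0.1) in 1 of 15 pairs of groups, with correlations of -0.0791 to 0.240, so the numbers do not pair the samples. Across all settings, other fold limits included, 82 values of single genes fell short of the threshold and 131 came past it, and none reversed.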
